A study of Mus musculus with 6 samples.

Results

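The genes described here are 10 components of interleukin 1, 18, 33 and 6 signalling, taken by name from the 33696 genes in the count matrices. They are the ligands Il33, Il18 and Il6, the receptor chains Il1r1, Il18r1, Il1rl1 (ST2) and Il1rl2, the co-receptor Il1rap, and the interleukin 6 receptor chains Il6ra and Il6st (gp130). All 10 were found in the matrices. They were read in single-nucleus RNA-seq of the left ventricle from mice with hypertrophic cardiomyopathy and from wild-type mice, with the aim of comparing cell types across genotype and empagliflozin treatment. WT-CD denotes wild-type mice on control diet, R403Q-CD denotes mice labelled Myh6+/R404Q (R403Q) on the same diet, and R403Q-EMPA denotes mice of that genotype whose diet held empagliflozin at 0.15 mg per g, which gives about 15 mg per kg body weight. All were male, began the diets at 9 to 10 weeks of age and were sampled for nuclei at 12 weeks. The labels give a feeding period longer than this interval, so the length of treatment behind these libraries is not settled here. The genotype is a heterozygous missense variant in the mouse gene for alpha myosin heavy chain, the motor protein of adult mouse cardiomyocytes, so the variant protein is made in cardiomyocytes while most members studied here were read in other cells. Empagliflozin is an inhibitor of the sodium-glucose co-transporter SGLT2. Each group had 2 libraries, and the labels do not state that the pair came from separate animals, so the p-values measure only the spread between libraries.

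Cytokines of the interleukin 1 family bind a ligand-specific receptor chain, which then recruits a second chain. Il1rap is that second chain for interleukin 1, 33 and 36, and the adaptor Myd88 carries the signal on to NF-kB. Interleukin 33 is held in the nucleus of stromal and barrier cells and is released when these cells are damaged, and its receptor ST2 is read in patients' blood as a marker of cardiac strain. Interleukin 18 is made as a precursor that caspase 1 cleaves. Interleukin 6 binds Il6ra and then gp130, a chain that is shared with leukemia inhibitory factor, oncostatin M, interleukin 11 and cardiotrophin and that acts through Stat3.

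The 6 libraries held 46005 nuclei after filtering, with 23624326 to 37411887 UMIs (counted molecules) per library and a median of 2663 to 4065 UMIs per nucleus. Of 45777 distinct barcodes, 228 (0.498%) occurred in more than 1 library. The nuclei formed 19 clusters, 11 classes were named from marker genes, and the 10 with at least 20 nuclei in every library were tested: fibroblast-like (14160 nuclei), endothelial-like (12476), cardiomyocyte-like (6928), pericyte-like (4678), endocardial-like (3237), myeloid-like (2403), lymphatic endothelial-like (1117), lymphoid-like (447), epicardial-like (245) and smooth muscle-like (224). The labels also list epicardial fat, and no adipocyte-like class was recovered. Levels are UMI counts scaled to a class total of 1000000 in each library (CPM), with mean ± SD over the 6 libraries. The summed level of 5 heat shock genes was higher in both R403Q-EMPA libraries than in the other 4 in each of the 10 classes. For example, it was 289 and 304 CPM against 41.8 to 68.2 CPM in fibroblast-like nuclei. Of 38 edgeR tests of these genes, 28 were called higher against WT-CD and 19 against R403Q-CD at an adjusted p under 0.05. Over all genes 1.46% and 0.298% of tests were called in these comparisons. The part of the heat shock genes in the results below was not tested.

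The members divided into those concentrated in a few classes and those read broadly, as the map of mean levels shows. Il33 and Il18 were highest in epicardial-like nuclei, Il1r1 in fibroblast-like, Il1rl2 in pericyte-like, Il18r1 in lymphoid-like, Il1rl1 and Il6ra in myeloid-like and Il6st in endocardial-like nuclei. Cardiomyocyte-like nuclei, the deepest class with a median of 8534 UMIs per nucleus, had the lowest level of Il6st and Il1rap among the 10 classes and were low for the rest.

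**Figure D1:**
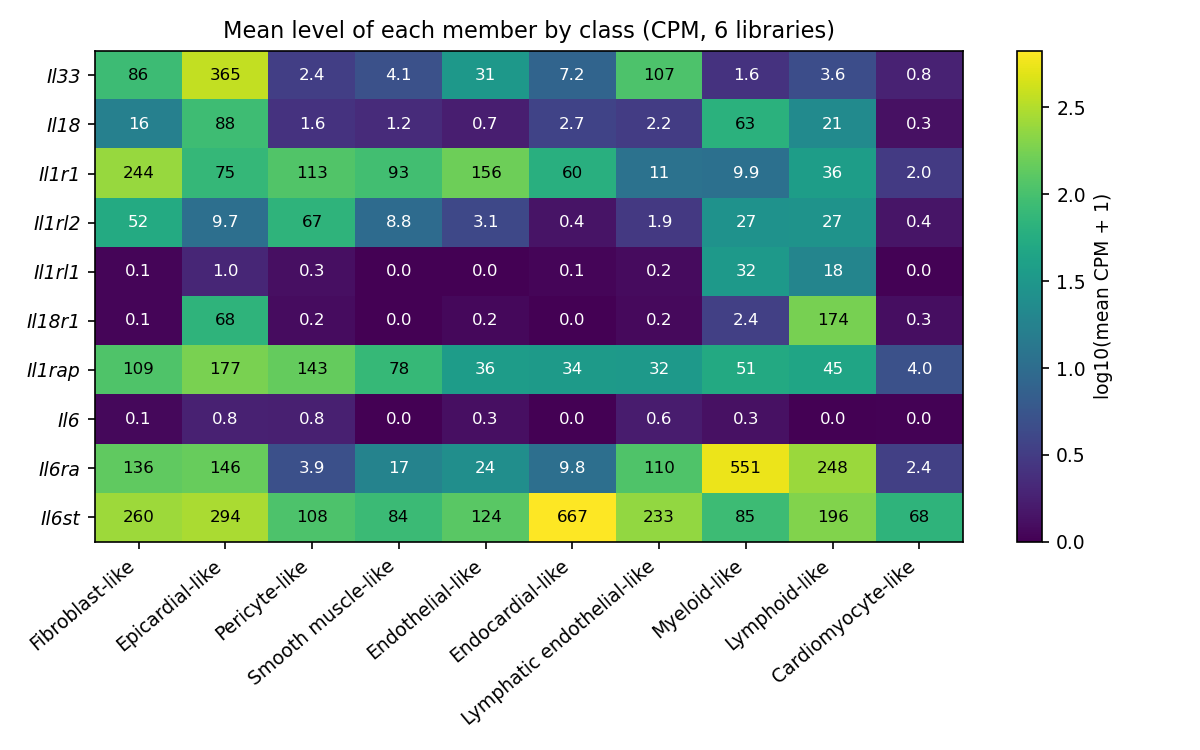
Mean CPM over the 6 libraries of each member (rows) in each of the 10 tested classes (columns), coloured by log10(mean CPM + 1) and printed as CPM. Il33 peaks at 365 CPM in the epicardial-like class, Il6ra at 551 CPM in the myeloid-like class and Il6st at 667 CPM in the endocardial-like class, while Il6 stays below 1 CPM throughout.

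Il33 (ENSMUSG00000024810), the nuclear alarmin, was read at 365 ± 208 CPM (SD, n = 6) in epicardial-like nuclei. It followed at 107 ± 35.6 CPM in lymphatic endothelial-like, 85.6 ± 23.9 CPM in fibroblast-like and 31.4 ± 12.2 CPM in endothelial-like nuclei. The epicardial-like level was above the lymphatic endothelial-like level in 6 of 6 libraries although the ranges over libraries overlapped, lymphatic endothelial-like and fibroblast-like nuclei overlapped, and the fibroblast-like, endothelial-like and endocardial-like ranges (7.24 ± 2.52 CPM in the last) did not. At least 1 UMI of Il33 was found in 139 of 245 epicardial-like nuclei (56.7%, 95% Wilson interval 50.5 to 62.8%, median depth 4267 UMIs) and in 45 of 6928 cardiomyocyte-like nuclei (0.650%, median depth 8534 UMIs). After each nucleus was thinned to 500 UMIs the shares were 17.6% and 0.0577%. These intervals cover counting error only.

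Because Il33 was one of the 2 members called below, the 250 bases before its RefSeq starts are shown, with the letters TATAAA in capitals. On GRCm38.p6 the first lies at chr19:29924863-29925112 and the second at chr19:29945540-29945789, both on the plus strand.
Il33 first start: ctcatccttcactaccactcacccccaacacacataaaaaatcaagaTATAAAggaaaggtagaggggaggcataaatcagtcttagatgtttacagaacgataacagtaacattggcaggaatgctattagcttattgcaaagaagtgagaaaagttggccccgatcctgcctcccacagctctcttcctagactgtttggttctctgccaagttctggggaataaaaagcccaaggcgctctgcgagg
Il33 second start: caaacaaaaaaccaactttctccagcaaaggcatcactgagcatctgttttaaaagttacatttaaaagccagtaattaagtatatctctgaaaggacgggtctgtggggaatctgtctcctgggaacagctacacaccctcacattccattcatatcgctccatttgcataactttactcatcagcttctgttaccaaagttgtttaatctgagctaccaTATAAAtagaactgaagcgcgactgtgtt
The TATAAA match begins 29 bases before the second start and 203 bases before the first, and 12.4% of the 32851 RefSeq upstream sequences of this length hold these letters on either strand. The AP-1 letters TGANTCA (6.75% of all sequences), the STAT letters TTCNNNGAA (7.02%), the NF-kB letters GGGA and CC with any 4 bases between them (17.6%) and the heat shock factor letters GAA, TTC and GAA with any 2 bases between neighbours (0.466%), each searched on both strands, were not found in either window. A match is only a match of letters. The 3' counts used here do not tell the 2 starts apart.

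Of 100 combinations of a member and a tested class, 53 had enough counts to be tested with edgeR's quasi-likelihood test and Benjamini-Hochberg adjustment over all genes of the class. No member was called at an adjusted p under 0.05 in R403Q-CD against WT-CD, where 0.0182% of 98926 tests over all genes were called, and 8 of the 53 had an unadjusted p under 0.05 (3 higher, 5 lower; 15.1% against 4.22% of all tests). None was called in R403Q-EMPA against R403Q-CD, where the background was 0.298%, and 13 had an unadjusted p under 0.05 (3 higher, 10 lower; 24.5% against 9.72%). DESeq2 called 0 and 1 in these comparisons, the 1 being Il33 in fibroblast-like nuclei. In R403Q-EMPA against WT-CD 2 were called, both in epicardial-like nuclei, with a background of 1.46% over all classes and 0.26% of the 4613 genes tested in that class. One of them, Il18r1, entered the test only through libraries in which it was high, since no WT-CD library reached the filter, so the count of 2 is not read against these backgrounds. In that comparison 13 had an unadjusted p under 0.05 (4 higher and 9 lower, 24.5% against 12.8%). The shares at an unadjusted p under 0.05 are not read as an excess over all tests. The 53 tests repeat 9 genes over classes of the same libraries. Epicardial-like Il1r1 and Il18r1 were among the higher in both comparisons with WT-CD, and neither reached the filter in a WT-CD library. The median log2 fold change over the 53 tests was -0.06, -0.05 and -0.15 in the 3 comparisons, which share libraries pairwise.

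**Figure D2:**
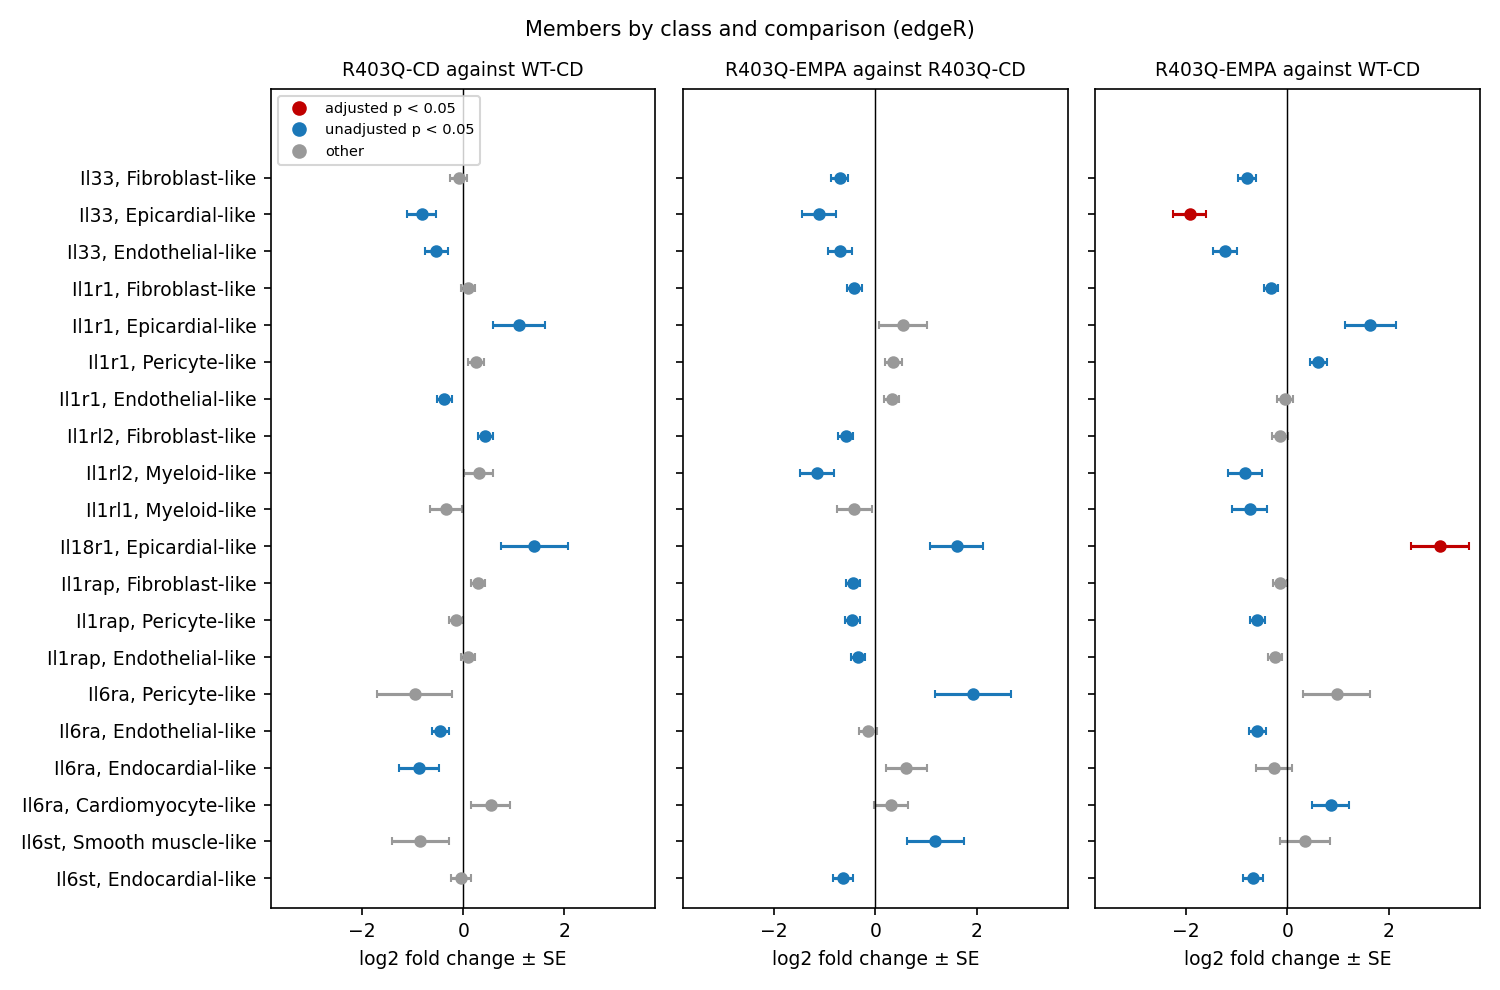
Log2 fold changes with standard errors (x axis) for each member and class with an unadjusted p under 0.05 in at least 1 comparison (y axis), in 3 panels for the 3 comparisons of 2 against 2 libraries. Red points passed an adjusted p of 0.05 and are Il33 (-1.93) and Il18r1 (3.01) in epicardial-like nuclei in R403Q-EMPA against WT-CD. No WT-CD library reached the filter for Il18r1, so it was tested through the groups where it was high. Blue points had an unadjusted p under 0.05.

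In epicardial-like nuclei Il33 was at 709 and 473 CPM in the WT-CD libraries, 350.5 and 331 CPM in R403Q-CD and 123 and 204 CPM in R403Q-EMPA. The 3 groups did not overlap, and the R403Q-EMPA libraries were the lowest. These levels rested on 219, 99, 42, 74, 20 and 20 UMIs from 71, 40, 27, 41, 37 and 29 nuclei. Il33 fell by 1.93 on the log2 scale in R403Q-EMPA against WT-CD (SE 0.32, adjusted p = 0.0207, a 3.82-fold difference). The R403Q-CD against WT-CD value was -0.82 (SE 0.28, adjusted p = 0.677), and the R403Q-EMPA against R403Q-CD value was -1.11 (SE 0.34, adjusted p = 0.387). Where a library is left out, its group keeps 1 library and is assumed to vary like the other groups. The call was lost without R403Q-EMPA replicate 1 (-1.57, adjusted p = 0.107) and without the mitochondrial filter (-1.26, adjusted p = 0.0967). It was also lost without the nuclei that held immune markers (-1.84, adjusted p = 0.115) or cell cycle genes (-1.78, adjusted p = 0.0632), choices made after seeing the data, and over all alternatives the adjusted p ran from 1.05e-06 to 0.115. Of epicardial-like nuclei, 64.8% and 62.5% held an Il33 UMI in WT-CD libraries, 66.7% and 61.0% did so in R403Q-CD, and 35.1% and 41.4% did so in R403Q-EMPA, so the R403Q-CD libraries lay with WT-CD in this measure. The R403Q-EMPA nuclei were also shallower, with a median of 3672 and 2806 UMIs against 4161 to 5098 in the other libraries. Thinned to 500 UMIs, 2 of 37 and 0 of 29 R403Q-EMPA nuclei held an Il33 UMI, against 14.6 to 31.0% of the nuclei in the other 4 libraries.

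Fibroblast-like nuclei, which held most Il33 UMIs, were at 119 and 84.4 CPM in WT-CD, 83.7 and 106 CPM in R403Q-CD and 61.9 and 58.2 CPM in R403Q-EMPA. Both R403Q-EMPA libraries lay below the other 4, and WT-CD and R403Q-CD overlapped. The log2 fold change was -0.80 (SE 0.17, adjusted p = 0.0684) against WT-CD and -0.71 (SE 0.17, adjusted p = 0.131) against R403Q-CD, and neither passed the threshold with edgeR. DESeq2 gave adjusted p-values of 0.0102 and 0.0465 for them. With edgeR the adjusted p of the difference from WT-CD was 0.0372 without WT-CD replicate 2 (-0.98), where the spread comes from the other groups, and that of the difference from R403Q-CD was 0.0435 without WT-CD replicate 1 and 0.0441 without replicate 2. The class held 3 clusters whose shares differed between libraries. Cluster 3, led by genes that include Ltbp2, Cilp, Thbs4 and Postn, made up 28.4% of the fibroblast-like nuclei of R403Q-EMPA replicate 1 and 1.34 to 6.15% elsewhere. Cluster 2 made up 21.4% and 32.1% in the R403Q-EMPA libraries and 40.4 to 51.1% in the other libraries. Over all libraries pooled, Il33 was at 66.1, 122 and 90.8 CPM in clusters 1, 2 and 3. The part of the cluster shares in the class values was not tested. Fitted on its own, each cluster gave a lower Il33 level in R403Q-EMPA than in WT-CD, at -0.83 in cluster 1 (adjusted p = 0.121), -0.74 in cluster 2 (adjusted p = 0.0876) and -0.74 in cluster 3 (adjusted p = 0.678).

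**Figure D3:**
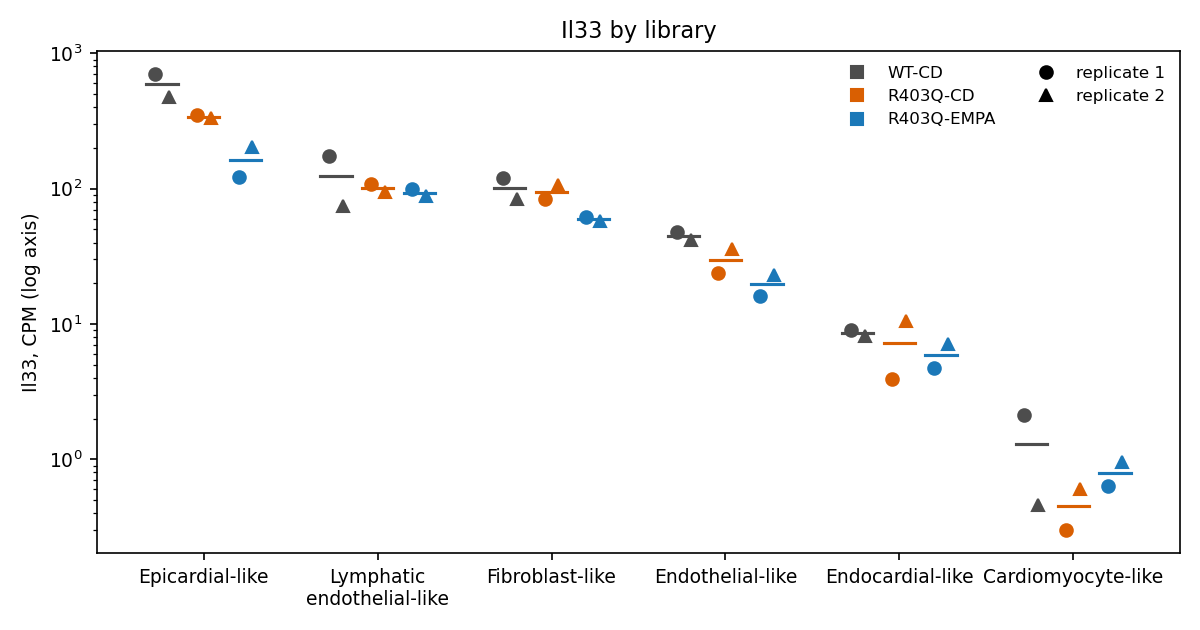
Il33 CPM on a log axis in each library (circles replicate 1, triangles replicate 2, short lines group means) for the 6 classes in which Il33 was tested. Epicardial-like points run from 709 CPM in WT-CD replicate 1 to 123 CPM in R403Q-EMPA replicate 1, and in fibroblast-like and endothelial-like nuclei the R403Q-EMPA points lie below those of both other groups.

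Endothelial-like nuclei held Il33 at 47.5 and 41.9 CPM in WT-CD, 24.0 and 35.9 CPM in R403Q-CD and 16.2 and 23.0 CPM in R403Q-EMPA. The 3 groups did not overlap. The difference of R403Q-EMPA from WT-CD was -1.23 (SE 0.24, adjusted p = 0.0645, 0.00507 with DESeq2), that of R403Q-CD from WT-CD was -0.53 (SE 0.22, adjusted p = 1.00) and that of R403Q-EMPA from R403Q-CD was -0.70 (SE 0.24, adjusted p = 0.387). For the first of these edgeR passed the threshold without WT-CD replicate 1 (adjusted p = 0.0486), without the mitochondrial filter (adjusted p = 0.0379) and with predicted doublets kept (adjusted p = 0.0486). Il33 in this class came almost entirely from 1 of its 3 clusters. Cluster 6, led by Kirrel3, Col13a1, Alk and Vegfc, held 1117 Il33 UMIs at 36.0 to 65.8 CPM, while cluster 5, led by Btnl9, Car4 and Pdgfb, held 24 UMIs at no more than 4.98 CPM and cluster 7, led by Gja5 and Sema3g, held 2. The share of cluster 6 was higher in both WT-CD libraries than in the other 4, and the R403Q-EMPA libraries spanned those of R403Q-CD. WT-CD libraries had 67.4% and 61.2% of their endothelial-like nuclei there, R403Q-CD libraries 49.5% and 49.9%, and R403Q-EMPA libraries 37.0% and 56.9%. Within cluster 6 alone Il33 was at 65.8 and 62.4, 45.0 and 65.8, and 40.7 and 36.0 CPM, and the R403Q-EMPA against WT-CD value was -0.72 (SE 0.20, adjusted p = 0.181). The difference was smaller within the cluster that held the transcripts than in the whole class, and the part of the cluster shares in it was not tested.

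**Figure D4:**
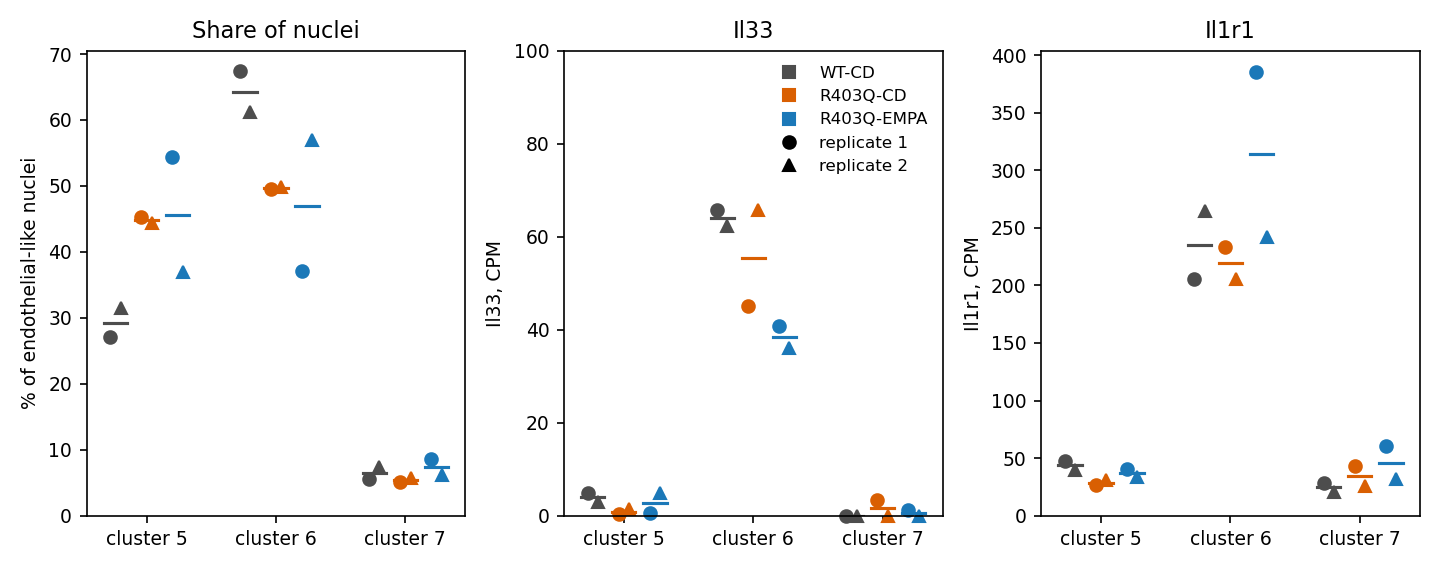
The 3 endothelial-like clusters (x axis) by library, as share of endothelial-like nuclei in % (left), Il33 CPM (middle) and Il1r1 CPM (right), with circles for replicate 1, triangles for replicate 2 and short lines for group means. Cluster 6 holds Il33 at 36.0 CPM or more and Il1r1 at 206 CPM or more in every library, and its share is lowest in R403Q-EMPA replicate 1 at 37.0%.

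Lymphatic endothelial-like nuclei were at 176 and 74.5 CPM of Il33 in WT-CD, 108 and 94.9 CPM in R403Q-CD and 98.8 and 88.0 CPM in R403Q-EMPA, with all groups overlapping. Over the 6 classes tested, the fitted Il33 value was below 0 in 6 of 6 in R403Q-CD against WT-CD and in 6 of 6 in R403Q-EMPA against WT-CD, which share the WT-CD libraries, and in 5 of 6 in R403Q-EMPA against R403Q-CD. Over all genes 50.8%, 50.0% and 49.5% of tests were below 0 in these comparisons, in that order. The 6 classes were read in the same libraries, so they are not separate agreements.

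Il18 (ENSMUSG00000039217), the other ligand of the interleukin 1 family, was read at 88.3 ± 25.4 CPM in epicardial-like and 62.6 ± 11.3 CPM in myeloid-like nuclei, ranges that overlapped. Lymphoid-like nuclei followed at 21.5 ± 9.37 CPM and fibroblast-like nuclei at 16.1 ± 3.47 CPM. Its epicardial-like levels were 97.1 and 129 CPM in WT-CD, 91.8 and 89.5 CPM in R403Q-CD and 61.5 and 61.1 CPM in R403Q-EMPA. The groups were ordered as for Il33 and did not overlap, but the R403Q-EMPA libraries held only 10 and 6 UMIs. The R403Q-EMPA against WT-CD value was -0.87 (SE 0.43, adjusted p = 0.600). That of R403Q-CD against WT-CD was -0.32 (SE 0.38, adjusted p = 0.994), and that of R403Q-EMPA against R403Q-CD was -0.56 (SE 0.46, adjusted p = 0.847). In myeloid-like nuclei Il18 was at 49.6 and 75.0, 49.9 and 71.2, and 70.9 and 59.2 CPM, with no separation of the groups.

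Il18r1 (ENSMUSG00000026070), the ligand-binding chain for interleukin 18, was concentrated in 2 classes. Lymphoid-like nuclei held 174 ± 88.1 CPM and epicardial-like nuclei 67.8 ± 67.0 CPM, their ranges overlapped, and every other tested class had a mean of at most 2.44 CPM. Without the mitochondrial filter the lymphoid-like mean was 307 CPM. Of 289 UMIs in all nuclei, 178 were lymphoid-like, all in cluster 16 (led by Skap1, Lef1 and Themis), and 66 were epicardial-like. A UMI was seen in 75 of 447 lymphoid-like nuclei (16.8%, 95% Wilson interval 13.6 to 20.5%, median depth 2119 UMIs), in 35 of 245 epicardial-like nuclei (14.3%, interval 10.5 to 19.2%) and in 15 of 6928 cardiomyocyte-like nuclei (0.217%). Thinned to 500 UMIs the shares were 6.94%, 3.27% and 0.0144%. No endocardial-like nucleus of 3237 had one.

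Epicardial-like Il18r1 was at 12.9 and 23.9 CPM in WT-CD, 25.0 and 62.6 CPM in R403Q-CD and 191 and 91.6 CPM in R403Q-EMPA. The groups did not overlap and R403Q-EMPA replicate 1 was the highest, on UMI counts of 4, 5, 3, 14, 31 and 9. A single nucleus held 11 of the 31 UMIs of that library. The filter on low counts asked for 53.8 CPM in at least 2 libraries of this class, which Il18r1 reached in both R403Q-EMPA libraries and R403Q-CD replicate 2 and in neither WT-CD library, so the gene entered the test through the groups where it was high. Il18r1 rose in R403Q-EMPA against WT-CD by 3.01 on the log2 scale (SE 0.57, adjusted p = 0.0329, 8.08-fold). R403Q-CD differed from WT-CD by 1.41 (SE 0.66, adjusted p = 0.950), and R403Q-EMPA from R403Q-CD by 1.61 (SE 0.52, adjusted p = 0.437). With each library left out in turn these 2 values ran from 0.47 to 1.83 and from 0.93 to 2.53. The call was lost with DESeq2 (2.99, adjusted p = 0.230), without WT-CD replicate 1 (2.56, adjusted p = 0.0618), without R403Q-EMPA replicate 1 (2.31, adjusted p = 0.472) and without the nucleus with 11 UMIs (2.67, adjusted p = 0.113), a choice made after seeing the data. Without that nucleus R403Q-EMPA replicate 1 was at 137 CPM, still the highest library. Over all alternatives the adjusted p ran from 0.000356 to 0.472.

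Transcripts of other kinds moved with this class. The summed level of 8 myeloid markers in epicardial-like nuclei was 126 and 86.0 CPM in WT-CD, 409 and 309 CPM in R403Q-CD and 670 and 142 CPM in R403Q-EMPA. That of 10 lymphoid markers was 22.7 and 4.78, 33.4 and 112, and 12.3 and 10.2 CPM, with Themis, Cd3e and Ms4a1 among those at 0 in all 6 libraries. That of 6 cell cycle genes was 19.4 and 62.1, 150.2 and 17.9, and 824 and 173 CPM, so R403Q-EMPA replicate 1 was highest for the myeloid and the cycle genes as for Il18r1. Heat shock genes in this class were at 314 and 214 CPM in R403Q-EMPA and 67.1 to 197 CPM elsewhere. Of the 35 epicardial-like nuclei with an Il18r1 UMI, 19 also held a lymphoid or myeloid marker UMI, against 104 of all 245, and 9 also held a cell cycle UMI, against 33 of 245. The epicardial markers themselves, led by Muc16, Upk3b and Upk1b, were at 6327 to 7449 CPM in all 6 libraries. The summed level of 9 fibroblast markers in this class was 6494 CPM in R403Q-EMPA replicate 2 and 2280 to 3165 CPM in the other 5 libraries, and its part in the Il33 level was not tested. In the nuclei without an immune marker Il18r1 was at 0 and 34.8 CPM in WT-CD libraries, 42.4 and 84.7 CPM in R403Q-CD and 118 and 95.1 CPM in R403Q-EMPA, and the groups kept this order without overlap. In those without a cell cycle gene it was at 14.2 and 24.7, 26.2 and 69.4, and 118 and 66.5 CPM, where R403Q-EMPA overlapped R403Q-CD and stayed above WT-CD. Il18r1 had too few counts in either set to be tested. Il18rap, the second chain of the interleukin 18 receptor, had no UMI in any epicardial-like nucleus and was at 90.1 ± 52.9 CPM in lymphoid-like nuclei.

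**Figure D5:**
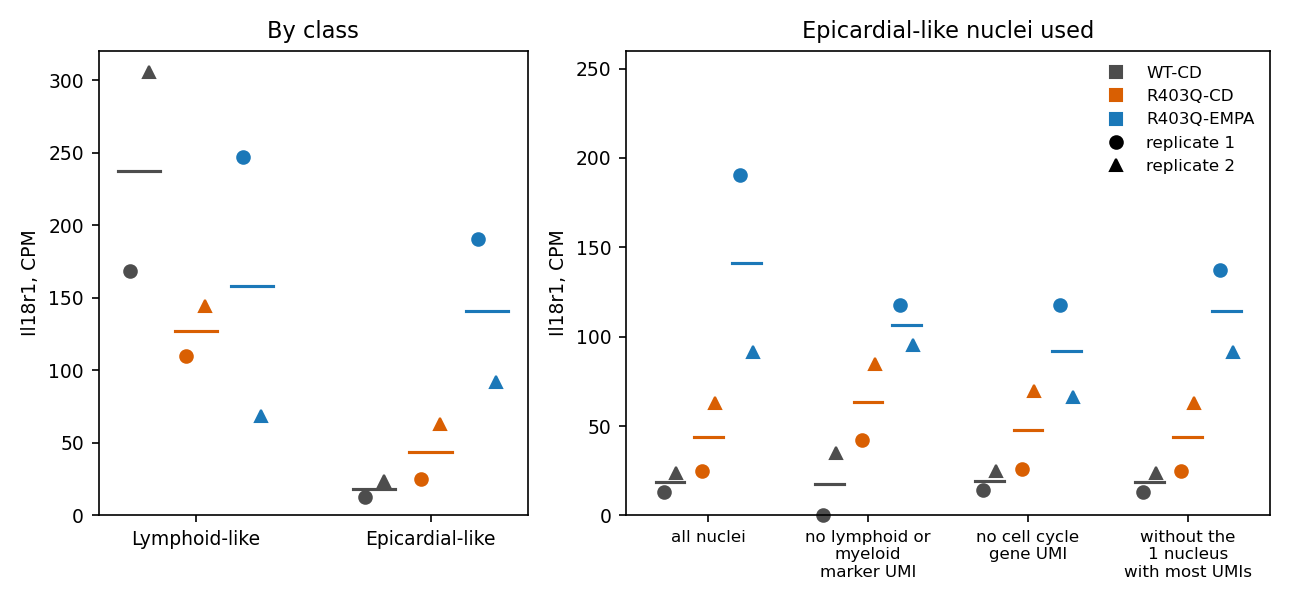
Il18r1 CPM by library, on the left for the lymphoid-like and epicardial-like classes, on the right for all epicardial-like nuclei, those without a lymphoid or myeloid marker UMI, those without a cell cycle gene UMI and all but the 1 nucleus with most Il18r1 UMIs; circles are replicate 1, triangles replicate 2 and short lines group means. With all epicardial-like nuclei R403Q-EMPA replicate 1 stands at 191 CPM and WT-CD at 12.9 and 23.9 CPM, and in the 3 reduced sets of nuclei the R403Q-EMPA points stay above the WT-CD points.

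The 250 bases before the first of the 3 RefSeq starts of Il18r1 are shown as the second gene called in epicardial-like nuclei, from chr1:40465302-40465551 on the plus strand of GRCm38.p6.
Il18r1 first start: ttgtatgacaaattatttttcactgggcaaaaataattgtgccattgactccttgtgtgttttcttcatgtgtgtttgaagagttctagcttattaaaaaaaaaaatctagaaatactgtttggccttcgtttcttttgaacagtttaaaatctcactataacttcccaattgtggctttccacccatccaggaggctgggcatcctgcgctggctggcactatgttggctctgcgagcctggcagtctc
None of the 5 letter sets named above occurs in it, which says only that those letters are absent from this window. The window before the third start holds 2 STAT matches. Il18r1 lies on chromosome 1 between Il1rl1 and Il18rap, in a row of related receptor genes that runs Il1r2, Il1r1, Il1rl2, Il1rl1, Il18r1 and Il18rap in the RefSeq order.

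In lymphoid-like nuclei Il18r1 was at 168 and 306 CPM in WT-CD, 109.8 and 144 CPM in R403Q-CD and 247 and 68.7 CPM in R403Q-EMPA. The R403Q-CD libraries lay below WT-CD, and the 2 R403Q-EMPA libraries were far apart, the lower on 6 UMIs. No comparison passed the threshold (smallest adjusted p = 0.824), and the R403Q-CD against WT-CD value was -0.87 (SE 0.43, adjusted p = 0.835). R403Q-EMPA overlapped both other groups, with values of 0.41 (SE 0.46, adjusted p = 0.938) against R403Q-CD and -0.46 (SE 0.45, adjusted p = 0.824) against WT-CD, and with each library left out in turn these ran from -0.92 to 0.91 and from -1.78 to 0.05.

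Il1r1 (ENSMUSG00000026072), the signalling receptor for interleukin 1, was read in stromal and vascular classes. It was at 244 ± 30.5 CPM in fibroblast-like, 156 ± 23.3 CPM in endothelial-like and 113 ± 24.6 CPM in pericyte-like nuclei. The fibroblast-like range lay above the endothelial-like range, and the endothelial-like and pericyte-like ranges overlapped although endothelial-like nuclei were higher in 6 of 6 libraries. Cardiomyocyte-like nuclei were at 2.05 ± 0.519 CPM. A UMI was seen in 49.7% of fibroblast-like nuclei (10.6% after thinning) and 1.63% of cardiomyocyte-like nuclei (0.0866% after thinning). As for Il33, endothelial-like Il1r1 lay mainly in cluster 6, at 206 to 386 CPM, against 26.6 to 47.8 CPM in cluster 5 and 20.7 to 60.4 CPM in cluster 7.

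Fibroblast-like Il1r1 was at 235 and 271 CPM in WT-CD, 263 and 276 CPM in R403Q-CD and 211 and 207 CPM in R403Q-EMPA. The R403Q-EMPA libraries were the lowest, and the other groups overlapped. The value was -0.41 (SE 0.14, adjusted p = 0.260) against R403Q-CD and -0.32 (SE 0.14, adjusted p = 0.339) against WT-CD, and R403Q-CD differed from WT-CD by 0.09 (SE 0.14, adjusted p = 1.00). Cluster 3, which held 28.4% of the fibroblast-like nuclei of R403Q-EMPA replicate 1, had Il1r1 at 137 CPM, below the 251 and 267 CPM of clusters 1 and 2. Within cluster 1, the largest, Il1r1 was at 232 and 269 CPM for WT-CD, 262 and 263 CPM for R403Q-CD and 255 and 215 CPM for R403Q-EMPA, so that R403Q-EMPA overlapped WT-CD. The values there were -0.20 (adjusted p = 0.768) against R403Q-CD and -0.13 (adjusted p = 0.833) against WT-CD, and in cluster 2 they were -0.38 (adjusted p = 0.359) and -0.27 (adjusted p = 0.479). In pericyte-like nuclei R403Q-EMPA took the other end of the order, at 85.1 and 96.6 CPM in WT-CD, 98.2 and 116 CPM in R403Q-CD and 131 and 151 CPM in R403Q-EMPA. The groups did not overlap there and R403Q-EMPA was the highest, with a value of 0.61 against WT-CD (SE 0.17, adjusted p = 0.102; 0.76 and 0.0359 without WT-CD replicate 2). The 8 pericyte markers of this class summed to 12425 and 12051 CPM in R403Q-EMPA against 13670 to 14849 CPM in the other libraries. Its 9 endothelial markers summed to 392 and 206 CPM in R403Q-EMPA against 168 to 188 CPM, and its cell cycle genes to 218 CPM in R403Q-EMPA replicate 1 against 24.8 to 63.2 CPM. Their part in the Il1r1 and Il1rap levels was not tested. The difference between the classes was tested itself, with limma on the within-library differences of log2 CPM between them, adjusted over the 11737 genes of that pair of classes. The fibroblast-like minus pericyte-like value was -0.92 in R403Q-EMPA against WT-CD (adjusted p = 0.0110) and -0.77 in R403Q-EMPA against R403Q-CD (adjusted p = 0.0297), and -0.16 in R403Q-CD against WT-CD (adjusted p = 1.00). Of 537 such tests of members over all pairs of classes and comparisons, these 2 were called (0.372%), against 0.263% of the same tests over all genes. For that pair of classes 0.886% and 0.469% of all genes were called in the 2 comparisons. With the fibroblast-like nuclei of cluster 1 alone, a choice made after seeing the data, the differences were -0.74 (adjusted p = 0.0680) and -0.56 (adjusted p = 0.278), and with cluster 2 alone -0.87 (adjusted p = 0.0218) and -0.73 (adjusted p = 0.0662). Both calls were lost without WT-CD replicate 1 (adjusted p = 0.116 and 0.0872) and without WT-CD replicate 2 (adjusted p = 0.143 and 0.0910), and the call against R403Q-CD was lost without R403Q-CD replicate 1 (adjusted p = 0.499) or 2 (adjusted p = 0.213). With each library left out in turn the difference stayed between -1.05 and -0.79 against WT-CD and between -0.89 and -0.63 against R403Q-CD.

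Epicardial-like Il1r1 was at 22.7 and 52.6, 66.8 and 85.0, and 129 and 91.6 CPM on 7 to 21 UMIs, and the 3 groups did not overlap. The value was 1.64 (SE 0.50, adjusted p = 0.254) in R403Q-EMPA against WT-CD and 1.10 (SE 0.51, adjusted p = 0.950) in R403Q-CD against WT-CD. No WT-CD library reached the 53.8 CPM filter of this class, so the gene entered the test through the groups where it was high. Endothelial-like Il1r1 was at 158 and 186, 136 and 125, and 176 and 156 CPM. R403Q-CD was the lowest there, at -0.37 against WT-CD (SE 0.15, adjusted p = 1.00). Within cluster 6 WT-CD and R403Q-CD overlapped, at 206 and 264 CPM against 234 and 206 CPM, and the value was -0.08 (adjusted p = 1.00). Within cluster 5 they did not overlap, at 47.8 and 39.9 CPM in WT-CD libraries against 26.6 and 30.8 CPM in R403Q-CD libraries, and the value was -0.58 (SE 0.20, adjusted p = 1.00), while in cluster 7 it was 0.53 (SE 0.55, adjusted p = 0.994).

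Il1rl1 (ENSMUSG00000026069) encodes the interleukin 33 receptor ST2, and gene counts do not separate its membrane form from its soluble form. It was the member with the narrowest distribution, with 264 of 302 UMIs in myeloid-like nuclei. It was detected in 204 of 2403 myeloid-like nuclei (8.49%, 95% Wilson interval 7.44 to 9.67%; 1.37% after thinning), in 5 of 14160 fibroblast-like nuclei and in none of 12476 endothelial-like nuclei. The classes with most Il33 thus had almost no Il1rl1. A further 21 UMIs came from 4 lymphoid-like nuclei, again of cluster 16. Myeloid-like levels were 38.9 and 43.2 CPM in WT-CD, 42.2 and 23.3 CPM in R403Q-CD and 30.6 and 16.7 CPM in R403Q-EMPA. R403Q-EMPA lay below WT-CD and overlapped R403Q-CD, with a value of -0.75 against WT-CD (SE 0.34, adjusted p = 0.465) and -0.41 against R403Q-CD (SE 0.35, adjusted p = 0.863). R403Q-CD overlapped WT-CD, with a value of -0.34 (SE 0.31, adjusted p = 0.994). Mast cells and neutrophils can also carry ST2 or enter a myeloid class. The summed level of 6 mast cell genes in myeloid-like nuclei was 0.727 to 15.1 CPM with Ms4a2 at 0, and that of 6 neutrophil genes was 62.1 to 117 CPM and highest in R403Q-EMPA replicate 1; their part in the Il1rl1 level was not tested.

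Il1rl2 (ENSMUSG00000070942), the receptor chain for interleukin 36, was read in pericyte-like nuclei at 67.0 ± 9.49 CPM and in fibroblast-like nuclei at 52.5 ± 10.7 CPM. The ranges overlapped, though pericyte-like nuclei were higher in 6 of 6 libraries. Pericyte-like levels were 60.6 and 66.7 CPM in WT-CD libraries, 76.2 and 71.5 CPM in R403Q-CD and 75.3 and 51.6 CPM in R403Q-EMPA. R403Q-CD lay above WT-CD, with a value of 0.23 (SE 0.18, adjusted p = 0.999), and R403Q-EMPA overlapped both, at -0.25 against R403Q-CD (SE 0.19, adjusted p = 0.778) and -0.02 against WT-CD (SE 0.19, adjusted p = 0.979). Fibroblast-like levels were 46.3 and 49.5 CPM in WT-CD, 66.3 and 63.6 CPM in R403Q-CD and 50.9 and 38.1 CPM in R403Q-EMPA. R403Q-CD was the highest group, and R403Q-EMPA overlapped WT-CD. R403Q-CD differed from WT-CD by 0.44 (SE 0.15, adjusted p = 1.00), and R403Q-EMPA from R403Q-CD by -0.59 (SE 0.16, adjusted p = 0.165). In myeloid-like nuclei, at 28.3 and 28.2, 44.2 and 26.9, and 15.3 and 18.2 CPM, the R403Q-EMPA libraries were the lowest. The myeloid-like values were -1.15 (SE 0.33, adjusted p = 0.406) against R403Q-CD and -0.84 (SE 0.34, adjusted p = 0.410) against WT-CD.

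Il1rap (ENSMUSG00000022514), the co-receptor, had enough counts for a test in all 10 classes. It was at 177 ± 44.0 CPM in epicardial-like, 143 ± 25.6 CPM in pericyte-like and 109 ± 15.2 CPM in fibroblast-like nuclei, each overlapping the next, and at 3.98 ± 2.09 CPM in cardiomyocyte-like nuclei. The Schwann-like class, named but too small to be tested, had a higher mean of 479 ± 337 CPM on 89 UMIs from 59 nuclei. Epicardial-like levels were 223 and 229 CPM in WT-CD libraries, 125 and 170.02 CPM in R403Q-CD and 184 and 132 CPM in R403Q-EMPA. WT-CD was the highest group, with values of -0.59 in R403Q-CD (SE 0.31, adjusted p = 0.970) and -0.49 in R403Q-EMPA (SE 0.32, adjusted p = 0.731). R403Q-EMPA overlapped R403Q-CD at 0.10 (SE 0.35, adjusted p = 0.967). Pericyte-like levels were 167 and 166 CPM in WT-CD, 158 and 141 CPM in R403Q-CD and 115 and 108 CPM in R403Q-EMPA. The 3 groups did not overlap. The value was -0.59 (SE 0.15, adjusted p = 0.0668) in R403Q-EMPA against WT-CD and -0.46 (SE 0.15, adjusted p = 0.308) against R403Q-CD. Without WT-CD replicate 1 the former was -0.64 (adjusted p = 0.0343). The pericyte-like nuclei of R403Q-EMPA had the lowest Il1rap and the highest Il1r1 of the 3 groups, beside the marker levels given above for this class. Fibroblast-like Il1rap was at 96.7 and 109.8, 127 and 128, and 92.2 and 102 CPM. R403Q-CD was highest, and the value against it was -0.44 in R403Q-EMPA (SE 0.14, adjusted p = 0.233). Endothelial-like Il1rap was at 36.7 and 37.7, 39.97 and 37.4, and 32.3 and 29.9 CPM. R403Q-EMPA was the lowest there, at -0.34 against R403Q-CD (SE 0.14, adjusted p = 0.499).

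Il6, the ligand, was close to the detection limit. Over all 46005 nuclei 42 UMIs were counted, 20 of them in R403Q-EMPA replicate 1 and 0 in R403Q-EMPA replicate 2, with 3 to 8 in each other library. Endothelial-like nuclei held 17, of which 14 were from R403Q-EMPA replicate 1, and no nucleus held more than 2. No class had enough Il6 counts to be tested, so no difference between groups was detectable at this depth.

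Il6ra (ENSMUSG00000027947), the ligand-binding chain, was at 551 ± 56.5 CPM in myeloid-like nuclei, above the lymphoid-like class at 248 ± 44.3 CPM with no overlap. Epicardial-like (146 ± 44.6 CPM), fibroblast-like (136 ± 18.9 CPM) and lymphatic endothelial-like nuclei (110.3 ± 19.4 CPM) overlapped one another. A UMI was seen in 1692 of 2403 myeloid-like nuclei (70.4%; 23.3% after thinning) and in 1.98% of cardiomyocyte-like nuclei (0.101% after thinning). Myeloid-like levels were 468 and 569 CPM in WT-CD, 596 and 546 CPM in R403Q-CD and 505 and 619 CPM in R403Q-EMPA. The groups overlapped in every comparison, with values of 0.11 (SE 0.18, adjusted p = 0.994) in R403Q-CD and 0.06 (SE 0.18, adjusted p = 0.941) in R403Q-EMPA against WT-CD, and of -0.05 (SE 0.18, adjusted p = 0.976) from R403Q-CD to R403Q-EMPA. Endothelial-like Il6ra was at 30.3 and 29.5 CPM in WT-CD, 19.2 and 23.3 CPM in R403Q-CD and 19.6 and 19.8 CPM in R403Q-EMPA. WT-CD was the highest there, with values of -0.45 in R403Q-CD (SE 0.16, adjusted p = 1.00) and -0.60 in R403Q-EMPA (SE 0.17, adjusted p = 0.175). Cluster 6, whose share was highest in WT-CD, held Il6ra at 33.5 CPM and cluster 5 at 9.40 CPM. Within cluster 6 the values were -0.20 in R403Q-CD (adjusted p = 1.00) and -0.49 in R403Q-EMPA (adjusted p = 0.325), and within cluster 5 the R403Q-EMPA value was 0.39 (adjusted p = 0.779). The part of the cluster shares in the class values was not tested. Endocardial-like Il6ra, at 10.5 and 14.1 CPM in WT-CD and 7.83 and 6.05 CPM in R403Q-CD, gave -0.88 (SE 0.39, adjusted p = 1.00). Cardiomyocyte-like Il6ra, at 2.00 and 1.38 CPM in WT-CD and 3.51 and 2.85 CPM in R403Q-EMPA, gave 0.85 (SE 0.37, adjusted p = 0.239). Pericyte-like Il6ra, at 1.73 and 1.55 CPM in R403Q-CD and 3.14 and 10.2 CPM in R403Q-EMPA, gave 1.93 (SE 0.76, adjusted p = 0.433) on UMI counts of 4, 4, 4 and 12 and ran from 0.84 to 2.59 with each library left out, and with predicted doublets kept the sign of both of these last values turned.

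Il6st (ENSMUSG00000021756), the shared signalling chain gp130, was read in every class, from 67.7 ± 8.27 CPM in cardiomyocyte-like to 667 ± 174 CPM in endocardial-like nuclei, the latter above all others without overlap. A UMI was seen in 76.9% of endocardial-like and 41.1% of cardiomyocyte-like nuclei, or 24.5% and 3.23% after thinning. Endocardial-like levels were 911 and 623 CPM in WT-CD, 812 and 680.5 CPM in R403Q-CD and 442 and 535 CPM in R403Q-EMPA. WT-CD and R403Q-CD overlapped, with a value of -0.04 (SE 0.20, adjusted p = 1.00), and both R403Q-EMPA libraries were lower than all 4. The values were -0.67 (SE 0.20, adjusted p = 0.127) against WT-CD and -0.63 (SE 0.20, adjusted p = 0.220) against R403Q-CD, and the former was -0.87 without WT-CD replicate 2 (adjusted p = 0.0356). The summed heat shock level of this class was 303 and 312 CPM in R403Q-EMPA and 45.9 to 98.6 CPM elsewhere. The summed level of its 6 marker genes was also lowest in R403Q-EMPA, at 6083 and 8268 CPM against 9352 to 10969 CPM, and R403Q-EMPA replicate 1 was the lowest library for these markers as for Il6st. Their part in the Il6st level was not tested. In smooth muscle-like nuclei Il6st gave 1.19 in R403Q-EMPA against R403Q-CD (SE 0.56, adjusted p = 0.915) on 5 to 24 UMIs a library.

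Of 54 other genes of these families, chosen as ligands, antagonists, receptors and signal transducers, 44 had enough counts in at least 1 class, giving 257 tests per comparison. None was called in R403Q-CD against WT-CD, with 7 at an unadjusted p under 0.05 (2.72% against 4.22% of all tests), and none in R403Q-EMPA against R403Q-CD, with 18 (7.0% against 9.72%). With DESeq2 the counts were 0 and 1. In R403Q-EMPA against WT-CD 1 was called and 24 had an unadjusted p under 0.05 (8 higher, 16 lower; 9.34% against 12.8%). All 3 shares lay below those over all genes, and the 1 call of 257 compares with 1.46% of all tests. Without R403Q-EMPA replicate 1 none was called. Il1b, the ligand of Il1r1, was read in myeloid-like nuclei at 16.3 and 15.9 CPM in WT-CD, 39.0 and 37.8 CPM in R403Q-CD and 29.2 and 0 CPM in R403Q-EMPA. The R403Q-CD libraries lay above WT-CD, and the R403Q-EMPA libraries spanned both. The antagonist Il1rn was at no more than 3.47 CPM in myeloid-like nuclei, and the decoy receptor Il1r2 at no more than 7.64 CPM. Il18bp, the soluble inhibitor of interleukin 18, was at 5.24 ± 1.10 CPM in fibroblast-like and 7.22 ± 1.01 CPM in endothelial-like nuclei.

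The members' patterns over the 60 points of 10 classes and 6 libraries were compared as Pearson r of log2 CPM. The points share libraries, classes and depth, so r is a description. Among members, Il18 and Il6ra were most alike (r = 0.76), then Il1r1 and Il1rap (0.69), while Il33 and its receptor Il1rl1 gave -0.28. Of 15693 genes, those most like Il33 were Sema3d (0.86), Xkr4 (0.85) and Prrg3 (0.83). Those most like Il1r1 were Igfbp7 (0.90), Gulp1 (0.88) and Sh3rf1 (0.84), and those most like Il18r1 were Prss12 (0.91), Cyld (0.88) and Ly75 (0.87). Il1rl1 was most like Gm15503 (0.90), Gna15 (0.87) and Fcgr1 (0.87). Il6ra was most like Il16 (0.88), Pde3b (0.86) and Elf4 (0.84), and Il6st most like Gxylt2 (0.79), Ppl (0.78) and Rdx (0.78).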

How the data were processed

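Nuclei were isolated from frozen left ventricle and made into 3' libraries with 10x Genomics chemistry. The deposited matrices hold raw UMI counts per gene and barcode, made by the authors with Cell Ranger 8.0.1 and GRCm39 according to the submitters' processing notes, with no normalization and no cell annotation. The files held 69249 barcodes. Barcodes with at least 500 UMIs, at least 300 genes and at most 5% mitochondrial UMIs were kept (48438), and 2433 doublets predicted by scrublet (3.68 to 6.45% per library) were removed, leaving 46005 nuclei with 23624326 to 37411887 UMIs a library. Counts were scaled to 10000 per nucleus, and 2000 variable genes, 30 principal components, 15 neighbours and Leiden clustering at resolution 1.0 were used (scanpy 1.11.5, igraph 0.11.9). A cluster was named from at least 3 markers that were at least 2-fold higher than elsewhere and detected in at least 10% of its nuclei. UMIs were summed per library and class, and classes with at least 20 nuclei in every library were fitted in edgeR 4.0.16 (quasi-likelihood test, filterByExpr, TMM scaling, all 6 libraries, group as the only term), with Benjamini-Hochberg adjustment over all genes of the class and calls at an adjusted p under 0.05. A log2 fold change is from that fit. Its SE was derived as the absolute log2 fold change divided by the square root of the F statistic of the test. Differences between classes used limma 3.58.1, and DESeq2 1.42.0 was an alternative. The fits were tested on simulated counts. Replicate libraries differed by more than sampling noise and were counted separately. Exact permutation tests over 2 against 2 libraries cannot give a p below 0.333, so shares of nuclei are given without p. Upstream sequences came from RefSeq on GRCm38.p6, not the build of the matrices, and all 10 members matched.

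The members, gene lists and tests were chosen with earlier results of these data known. The members are named whatever their result, with fold changes where the unadjusted p was under 0.05 or the class held the highest level of that member among the tested classes. Of the 54 related genes, a short list of ligands, antagonists and receptors is named and the 1 called is not reported here by name, and for each member with at least 200 UMIs the 3 genes of most similar pattern (log2 CPM, prior count 2) were found. The cell cycle list, the fits of single clusters, the fits without epicardial-like nuclei that held immune or cell cycle genes or most Il18r1 UMIs, and leaving out libraries or clusters for the difference between classes were chosen after seeing the data. The other alternatives left out the filter on low counts, changed the scaling to RLE or the test to DESeq2, removed the mitochondrial filter, kept doublets, required 1000 UMIs, used Leiden resolution 0.5 or left out each library in turn.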

Additional observations from a re-analysis of the deposited data

Results flagged for a closer look

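The fitted effect of R403Q-EMPA on Il1r1 differed between fibroblast-like and pericyte-like nuclei. The fibroblast-like minus pericyte-like log2 difference was -0.77 against R403Q-CD and -0.92 against WT-CD, each past the threshold in a limma test of the difference itself (adjusted p = 0.0297 and 0.0110). For this pair of classes 0.469% and 0.886% of all genes were called in the same comparisons, and over all pairs 0.372% of member tests were called against 0.263% of all tests, so the calls are close to the background. Both calls were lost without either WT-CD library, and the one against R403Q-CD also without either R403Q-CD library. With the fibroblast-like nuclei of cluster 1 alone, in which R403Q-EMPA overlapped WT-CD, neither difference was called (-0.56 and -0.74, adjusted p = 0.278 and 0.0680), and with cluster 2 alone that against WT-CD was called (-0.87, adjusted p = 0.0218) and that against R403Q-CD was not (-0.73, adjusted p = 0.0662). Cluster 3, where Il1r1 was lowest at 137 CPM, held 28.4% of the fibroblast-like nuclei of R403Q-EMPA replicate 1. Within each class alone neither comparison was called. Il1r1 in both R403Q-EMPA libraries was lower than in the other 4 in fibroblast-like nuclei and higher than in the other 4 in pericyte-like nuclei.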

How the results depend on the processing

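No member called in the main analysis turned in direction, and the calls of Il33 and Il18r1 in epicardial-like nuclei are given with their alternatives above. Counts of calls under the alternatives, here and above, are given without the share of all genes called under the same setting. They are therefore not read as results about these genes. Members called in R403Q-EMPA against R403Q-CD numbered 0, against 4 with no filter on low counts, 1 with DESeq2 and 0 to 1 with each library left out (1 without WT-CD replicate 1 or 2). In R403Q-EMPA against WT-CD they numbered 2, against 6 with no filter and 0 to 5 with each library left out (0 without R403Q-EMPA replicate 1, 5 without WT-CD replicate 2). Of tests of the 54 related genes in R403Q-CD against WT-CD, 0 passed, against 1 with no filter. In R403Q-EMPA against R403Q-CD 0 were called, against 3 with no filter, 1 with RLE scaling, 1 with DESeq2 and 0 to 1 with each library left out (1 without WT-CD replicate 1 or 2 or R403Q-EMPA replicate 2). In R403Q-EMPA against WT-CD 1 was called, against 6 with no filter, 2 with RLE scaling, DESeq2, doublets kept or at least 1000 UMIs, and 0 to 2 with each library left out (0 without R403Q-EMPA replicate 1, 2 without either WT-CD or either R403Q-CD library). The Il1r1 difference between fibroblast-like and pericyte-like nuclei ran from -0.89 to -0.63 against R403Q-CD and from -1.05 to -0.79 against WT-CD with each library left out. With single fibroblast-like clusters, chosen after seeing the data, it was -0.56, -0.73 and -0.67 in clusters 1, 2 and 3 against R403Q-CD and -0.74, -0.87 and -0.79 against WT-CD, and of these only cluster 2 against WT-CD passed the threshold. The cause of these shifts was not tested.

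Among uncalled values, several turned in sign. With doublets kept these were Il6ra in cardiomyocyte-like (-0.13, R403Q-EMPA against WT-CD) and pericyte-like nuclei (-0.33, R403Q-EMPA against R403Q-CD) and Il1rl2 in pericyte-like nuclei (0.031, R403Q-EMPA against WT-CD). In fits of single clusters, chosen after seeing the data, they were Il1rl2 (-0.016 in R403Q-CD against WT-CD, 0.21 in R403Q-EMPA against R403Q-CD) and Il1rap (0.28, R403Q-EMPA against R403Q-CD) in fibroblast-like cluster 3, Il1r1 (0.53, R403Q-CD against WT-CD) and Il1rap (0.46, R403Q-EMPA against R403Q-CD) in endothelial-like cluster 7, and Il33 (0.85, R403Q-EMPA against R403Q-CD) and Il6ra (0.39, R403Q-EMPA against WT-CD) in endothelial-like cluster 5. Epicardial-like Il1rap in R403Q-EMPA against R403Q-CD was -0.034 without nuclei holding immune markers and -0.10 without those holding cell cycle genes, also chosen after seeing the data. With each library left out, the values that turned ran from -0.060 to 0.26 for fibroblast-like Il1r1, from -0.23 to 0.21 for endocardial-like Il6st, from -0.84 to 0.012 for myeloid-like Il1rl1 and from -0.062 to 0.29 for myeloid-like Il6ra in R403Q-CD against WT-CD. In R403Q-EMPA against R403Q-CD they ran from -0.98 to 0.084 for myeloid-like Il1rl1, from -0.23 to 0.12 for myeloid-like Il6ra, from -0.92 to 0.91 for lymphoid-like Il18r1 and from -0.20 to 0.38 for epicardial-like Il1rap. In R403Q-EMPA against WT-CD they ran from -0.29 to 0.18 for pericyte-like Il1rl2, from -0.12 to 0.24 for myeloid-like Il6ra and from -1.78 to 0.049 for lymphoid-like Il18r1.

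With no filter on low counts Il33 in fibroblast-like and endothelial-like and Il6st in endocardial-like nuclei passed in both comparisons of R403Q-EMPA, Il1rl2 in fibroblast-like nuclei against R403Q-CD and Il1rap in pericyte-like nuclei against WT-CD. Lymphoid-like Il18r1 was at 307 CPM without the mitochondrial filter, against 174 CPM. No paired analysis was run, because the labels give no replicate numbers shared across the groups. Depth limits the values of the small classes, epicardial-like (245 nuclei), smooth muscle-like (224) and lymphoid-like (447).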

Other observations

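One cardiomyocyte-like nucleus of R403Q-CD replicate 2 held 50 of the Il1rap UMIs. The R403Q-CD replicate 2 level of cardiomyocyte-like Il1rap, 7.96 CPM, was the highest of the 6 libraries, the others being at 1.99 to 4.04 CPM.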
